A study of Mus musculus with 4 samples.

Results

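Of the 20966 regions at which BRG1/BRM was called in mouse cortical neurons after depolarization, 3877 (18.5% [17.97 to 19.02]) lay far from any protein-coding gene, in the open stretches between genes. Such regions are called islands, and those described here, the distal islands, were chosen by position and width alone. Each overlapped no protein-coding gene body of the RefSeq annotation, lay more than 50 kb and at most 500 kb from the nearest protein-coding gene, and was wider than 600 bp and narrower than 5 kb. Reads and enrichment entered the choice only through the calling of the island and through its width, which derives from the reads. Values in square brackets are 95% exact intervals, binomial for shares and enrichment and Poisson for densities. They cover counting error only.

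BRG1 and BRM are the alternative ATPases of the BAF (SWI/SNF) complex, which uses ATP to slide or evict nucleosomes and so opens DNA to transcription factors. In neurons much of the binding of activity-regulated factors lies at enhancers, stretches of regulatory DNA that can act on a promoter over long distances. Regions far from coding genes can also hold the promoters of long noncoding RNAs (lncRNAs) and of microRNA hosts.

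The cells were primary cultures from wild-type cortex of E16.5 embryos, used on day 6 in vitro. The depolarized culture was kept for 1 h in 50 mM KCl after tetrodotoxin (1 µM, a sodium channel blocker) and APV (100 µM, an NMDA receptor antagonist) had been given on day 5 to silence spontaneous firing, and the other culture stayed at the basal KCl level. The labels leave unsaid whether basal cultures received the blockers. Chromatin was immunoprecipitated (IP) with the J1 antibody against BRG1/BRM, giving 4 samples, an IP and an input from each condition. Pooling of embryos is not stated. With 1 library on each side, differences between conditions have no replicates behind them, and islands of 1 library are not replicates of each other, so values are described without p-values. The lists hold occupancy and no expression, so the labelled cell type could not be checked against marker transcripts, and cultures of this kind can hold glia.

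The distal islands covered 6.73 Mb and were mostly 1200 to 2200 bp wide, the quartiles around a median of 1600 bp. They held 252143 IP reads and 60300 control reads, with 28 to 246 IP reads per island (median 59) beside a median of 14 control reads. The lists do not hold the libraries' total depths. Enrichment is the authors' fold, the ratio of IP to control reads after scaling for the libraries. Its median was 2.67 over the distal islands (interquartile range 2.10 to 3.61), and the values ran from 1.28 to 85.4. The highest value belongs to the distal island without control reads, for which the authors assumed a fraction of a read.

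A deposited fold of at least 2 was reached by 3073 distal islands (79.3% [78.0 to 80.5]), where 66.6% of all KCl islands reached it. An interval of the fold was computed from the IP and control reads of each island, letting both counts vary. Its lower limit was above 1 at 3528 distal islands (91.0% [90.1 to 91.9]), beside 86.4% of all KCl islands. With the same width bounds it was above 1 at 93.9% of islands beyond 500 kb, 86.0% at 2 to 50 kb and 82.0% in gene bodies. The islands were called from the same reads, so a large share above 1 follows in part from the calling. An FDR of at most 1e-05 was met by 3254 distal islands (83.9%), beside 76.9% of all KCl islands. The distal islands whose lower limit was not above 1 were called by the authors, yet their enrichment was not separable from 1 at the depth of a single island.

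Distal islands were more enriched than islands nearer to genes and less than those in the deepest deserts. With the same width bounds, the median fold was 2.67 in the distal class, 3.03 (n = 1066) beyond 500 kb, 2.46 (n = 2314) in the class between 2 and 50 kb and 2.11 (n = 10590) inside gene bodies. Both counts moved with the class. IP reads had a median of 38.0 per kb in distal islands, 38.7 beyond 500 kb, 36.1 at 2 to 50 kb and 31.8 in gene bodies. Control reads had a median of 8.75 per kb in distal islands, 8.33 beyond 500 kb, 9.17 at 2 to 50 kb and 9.50 in gene bodies. The part of the control density in the differences of fold was not tested.

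Narrower distal islands had higher folds. Across the 3877 distal islands, width and fold had a Spearman correlation of -0.43, given as a description, since both derive from reads of the same libraries. The median fold was 3.45 in distal islands of up to 1000 bp (n = 919), 2.70 from there to 2000 bp (n = 1912), 2.25 to 3000 bp (n = 791) and 1.97 above that (n = 255). In each of these ranges the distal median stood above that of the 2 to 50 kb class, which was 3.30, 2.51, 2.002 and 1.83 in the same order of width.

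The values just inside and just outside the bounds were these. Distal islands of 800 bp, the narrowest kept, had a median fold of 3.56 (n = 450), and islands of 600 bp, just too narrow, had 4.08 (n = 442). At the wide end, the 7 distal islands of 4800 bp had a median of 2.04 and the 8 islands of 5000 bp just outside had 2.11. The distal island closest to the inner bound lay 50.058 kb from Tox2, which encodes an HMG-box protein, and was 2.80-fold enriched, while the closest one outside lay 49.967 kb from Zbtb10 and was 2.81-fold enriched. At the outer bound, an island 499.869 kb from Cypt1 was 6.75-fold enriched, and one 500.108 kb from Cdh11 was 2.16-fold enriched. At the same distances, 703 narrower and 55 wider islands fell outside the class, with median folds of 4.40 and 1.81.

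Within the class, the median fold was higher at each step of distance from genes, although single islands at any distance varied far more. The median distance was 167 kb (interquartile range 94.5 to 278 kb). From 50 to 100, 100 to 200, 200 to 300, 300 to 400 and 400 to 500 kb the median fold was 2.57, 2.67, 2.71, 2.78 and 2.97, with 1070, 1216, 764, 500 and 327 islands. Over the same steps the control density was 9.09, 8.82, 8.85, 8.57 and 8.33 reads per kb, and the IP density stayed between 36.9 and 39.0 reads per kb. Spearman correlations with distance across the islands were 0.093 for fold, 0.024 for IP reads per kb and -0.083 for control reads per kb.

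Distal islands were denser per base than intergenic islands at 2 to 50 kb. The DNA at 50 to 500 kb from a coding gene amounted to 771.8 Mb and held 5.02 distal islands per Mb [4.87 to 5.18], against 4.54 [4.27 to 4.82] beyond 500 kb and 3.95 [3.80 to 4.12] at 2 to 50 kb. On autosomes alone the densities were 5.91 [5.72 to 6.10], 4.88 [4.59 to 5.19] and 4.42 [4.24 to 4.61] in the same order. Within the class the density was 4.84, 5.01, 5.32, 5.16 and 4.82 per Mb over the same 5 steps of distance, and neighbouring steps had overlapping intervals. The densities count DNA to which short reads may not map uniquely, which was not analysed here.

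**Figure D1:**
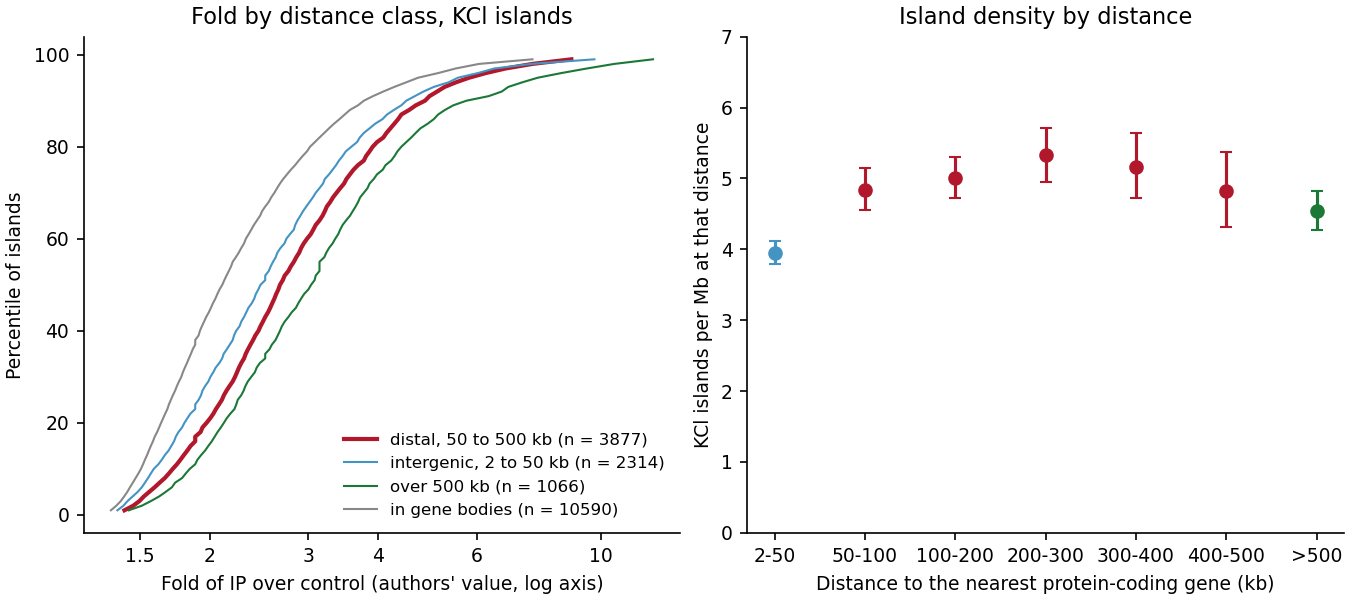
Left, the percentile of islands (vertical axis) below each fold of IP over control (horizontal, log axis) for 4 classes of KCl islands of the same width range; right, islands per Mb of DNA at each distance, with 95% exact Poisson intervals. The curve of the distal islands (median 2.67) lies between that beyond 500 kb (3.03) and that of 2 to 50 kb (2.46), and the 5 distal densities lie between 4.82 and 5.32 per Mb.

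By chromosome, distal islands were spread over all autosomes and sparse on the sex chromosomes. Autosomal densities ran from 4.42 per Mb on chromosome 7 to 7.65 on chromosome 16, with 5.91 per Mb over all autosomes. In 18 of 19 autosomes the distal density exceeded that of the 2 to 50 kb class, chromosome 14 being the exception with 5.19 and 5.34 per Mb. The X chromosome held 51 distal islands in 63.3 Mb, or 0.806 per Mb [0.600 to 1.06], and chromosome Y held 1. The shortage on X was also present in the other classes, with 0.411 per Mb at 2 to 50 kb and 0.749 beyond 500 kb. Those on X that were called had a median fold of 3.65, beside 35.0 IP and 7.14 control reads per kb. The sex of the embryos is not given, and the part of X copy number in the shortage was not tested.

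**Figure D2:**
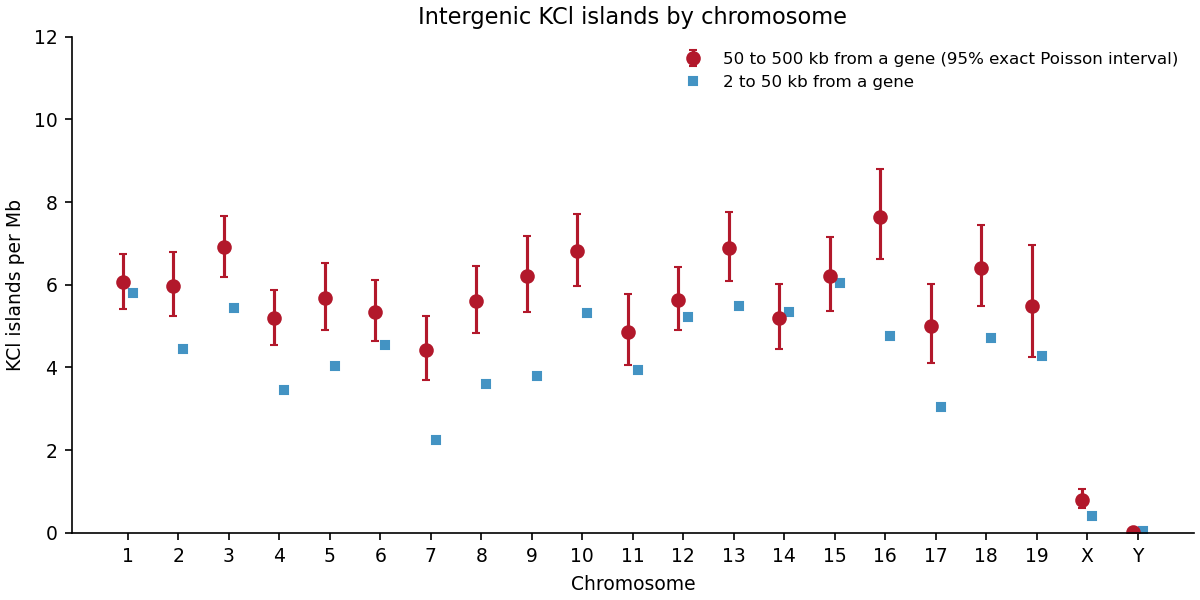
Density of KCl islands per Mb (vertical axis) on each chromosome (horizontal axis), for islands 50 to 500 kb from a coding gene with 95% exact Poisson intervals and for islands 2 to 50 kb away without intervals. The distal class runs from 4.42 to 7.65 per Mb on autosomes and is at 0.806 on X.

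The 6 most enriched distal islands were 800 to 1800 bp wide and held 12 or fewer control reads. Ranked by the lower limit of the fold, the first lay 231 kb from Lratd1, at chr12:14383001-14383800 (mm10), with 86 IP reads and 2 control reads, a fold of 27.0 [7.25 to 227], or 18.005 against a floor of 3 control reads. The next, 354 kb from Cadm2, which encodes a synaptic cell adhesion molecule (chr16:67974801-67976200), held 83 IP and 2 control reads and was 26.1-fold enriched [6.99 to 219], or 17.4 against that floor. An island 268 kb from the amylase gene Amy2b held 92 IP and 3 control reads (19.3-fold [6.39 to 95.1]). These 3 intervals overlap widely and the floor puts Amy2b first, so the order among them is not resolved.

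The distal island without control reads lay 158 kb from Klf12, a Krüppel-like repressor gene, and held 34 IP reads. Against the floor of 3 control reads it was 7.12-fold enriched, with a lower limit of 5.48. An island 345 kb from Gm32936 held 49 IP reads and 1 control read, a fold of 30.8 [5.27 to 1240], or 10.3 against the floor. The sixth, 257 kb from C1d, whose product is a cofactor of the nuclear exosome, was better covered, with 178 IP and 12 control reads (9.32-fold [5.20 to 18.4]).

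Read counts singled out other places. The distal island with the most IP reads, 246 beside 31 control reads (4.98-fold [3.42 to 7.50]), lay 105 kb from Kcnc2, which encodes the Kv3.2 channel of fast-spiking neurons (chr10:112571001-112573600). Next came 224 IP reads near the ubiquitin ligase gene G2e3 (3.52-fold [2.50 to 5.06]), 203 near the nuclear receptor gene Nr5a2 (3.36-fold [2.36 to 4.88]) and 199 near the testis glycerol kinase gene Gk2 (2.98-fold [2.12 to 4.26]). Their intervals overlap one another. The first 3 of these 4 also overlapped a basal island.

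Few distal islands had a counterpart called in basal neurons. Overlap of at least 1 bp with a basal island was found for 126 of 3877 (3.25% [2.71 to 3.86]), where 2.15% of all KCl islands had one. The share was 2.25% [1.45 to 3.33] beyond 500 kb and 2.03% [1.496 to 2.69] in the 2 to 50 kb class, whose interval lies below that of the distal islands. With basal islands of an FDR of at most 1e-05 alone, a setting added after seeing the data, the share was 1.42% [1.07 to 1.84] of distal islands, against 0.778% [0.462 to 1.23] in the 2 to 50 kb class and 0.816% of all KCl islands. The intervals of the distal and the 2 to 50 kb class then overlapped. Since the basal list held 711 islands, the lack of a basal call does not show that BRG1/BRM was absent.

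Distal islands called in both conditions had more reads after KCl than those called after KCl alone. Their median was 96.5 IP reads and 52.2 per kb, against 58 and 37.8 per kb for the 3751 without a basal island, and their median fold was 3.50, against 2.66. They were also slightly wider, with a median of 1800 bp against 1600 bp. The share with a basal island was 2.29, 2.93, 4.42 and 5.49% over the 4 ranges of width, narrow to wide, and 1.47, 1.80, 2.74 and 3.26% in the 2 to 50 kb class. From 50 to 100 kb, 4.11% of distal islands had a basal island, and from 400 to 500 kb 2.75%, with overlapping intervals.

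The shared islands with the largest KCl lower limits are given with both lists' values. The island near Lratd1 named above held 86 IP and 2 control reads in KCl, and its basal counterpart held 26 and 3 (9.85-fold [3.02 to 50.8]). Near C1d the fold was 9.32 in KCl and 3.57 [1.92 to 7.06] in basal neurons. An island 98.6 kb from Gm815 was 11.3-fold enriched [4.67 to 35.7] in KCl and 2.03-fold [1.25 to 3.35] in the basal list. One 62.1 kb from the olfactomedin gene Olfm4 was 6.10-fold enriched [3.69 to 10.7] in KCl and 6.82-fold [2.85 to 19.8] in the basal list. Near Tmem74 the values were 6.00 in KCl and 2.53 in the basal list, and near the ephrin receptor gene Epha6 they were 8.27 and 1.73, the basal interval of Epha6 [0.993 to 3.07] reaching below 1. The folds of the lists rest on different control reads, so their sizes are shown side by side and not tested.

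**Figure D3:**
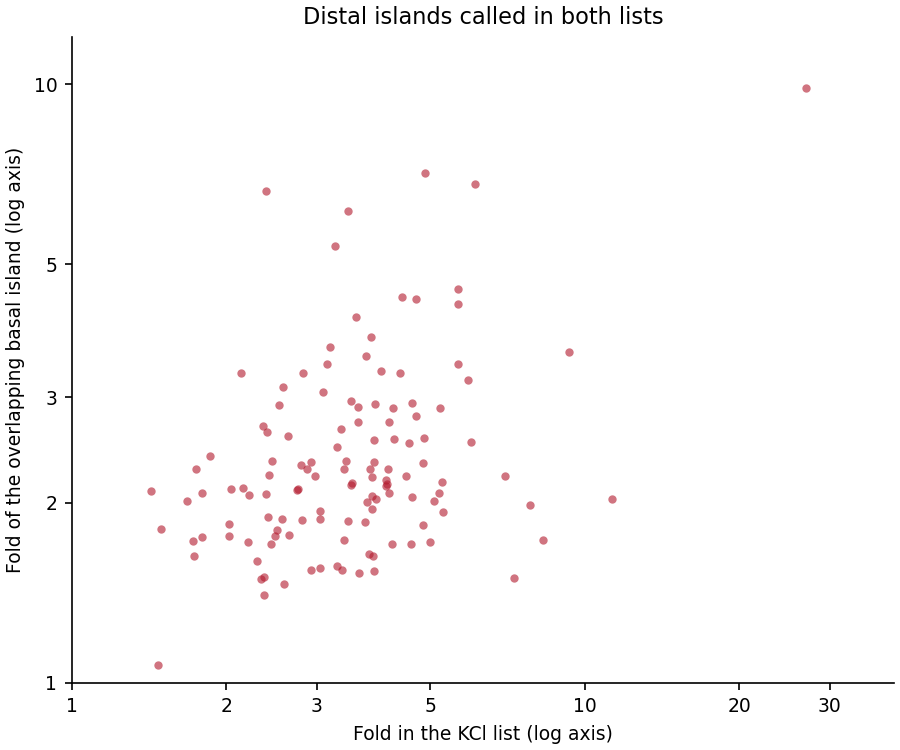
Fold in the KCl list (horizontal, log axis) and fold of the overlapping basal island (vertical, log axis) for the 126 distal islands called in both lists, 1 point per distal island. The point at the upper right is the island near Lratd1, at 27.0 in KCl and 9.85 in the basal list.

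Seen from the basal list, 166 of 711 islands (23.3% [20.3 to 26.6]) met the same bounds of distance and width. Of these, 120 (72.3% [64.8 to 78.9]) overlapped a KCl island of any kind, beside 449 of all 711 basal islands (63.2% [59.5 to 66.7]). The basal islands within the distal bounds had a median fold of 1.95 and 15.8 control reads per kb.

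Distal islands were unevenly shared among genes. A gene was said to have room where it borders a gap of more than 100 kb, so that a distal island could have it as nearest gene. Of 4744 protein-coding genes with room, 1609 (33.9%) were nearest to at least 1 distal island. One island was assigned to 743 genes, 2 to 4 islands to 639, 5 to 9 to 213, and 10 or more to 14. These 14 genes held 166 islands, or 4.28% of the class. Nearness on the chromosome is not evidence of regulation.

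Chl1 led with 17 distal islands. It encodes a neural adhesion molecule of the L1 family, and its islands lay 76.0 to 426 kb away on both sides with folds from 1.47 to 7.45. Prkd1, encoding protein kinase D1, had 16 (1.42 to 7.41-fold). Klf6, an activity-induced zinc finger gene, had 15 (1.71 to 4.12-fold), and all 15 had a fold interval above 1.

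The glycogen branching enzyme gene Gbe1 and the small GTPase gene Arl4a had 12 each, again all with intervals above 1. Arl4a reached 26.7 islands per Mb of its room, against 19.2 for Gbe1. Zfp608, the latrophilin gene Adgrl2, the deubiquitinase gene Usp25 and Btbd3, whose product orients cortical dendrites, had 11 each. Spry2, an inhibitor of receptor tyrosine kinase signalling, had 10 in only 0.296 Mb, or 33.8 per Mb. Among these 10 genes, a basal island was found at 1 island each of Zfp608 and Adgrl2.

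Distal islands lay in 1234 gaps between coding genes. Among those with the most, the gap between Plcl1 and Hsfy2 (882 kb) and the gap between Nr5a2 and Ptprc (1102 kb) held 16 each, with 3 basal overlaps each. Those between Gask1b and the AMPA receptor subunit gene Gria2 and between Etv1 and Arl4a held 15 each. In the Etv1 gap, 12 of the 15 were on the Arl4a side.

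**Figure D4:**
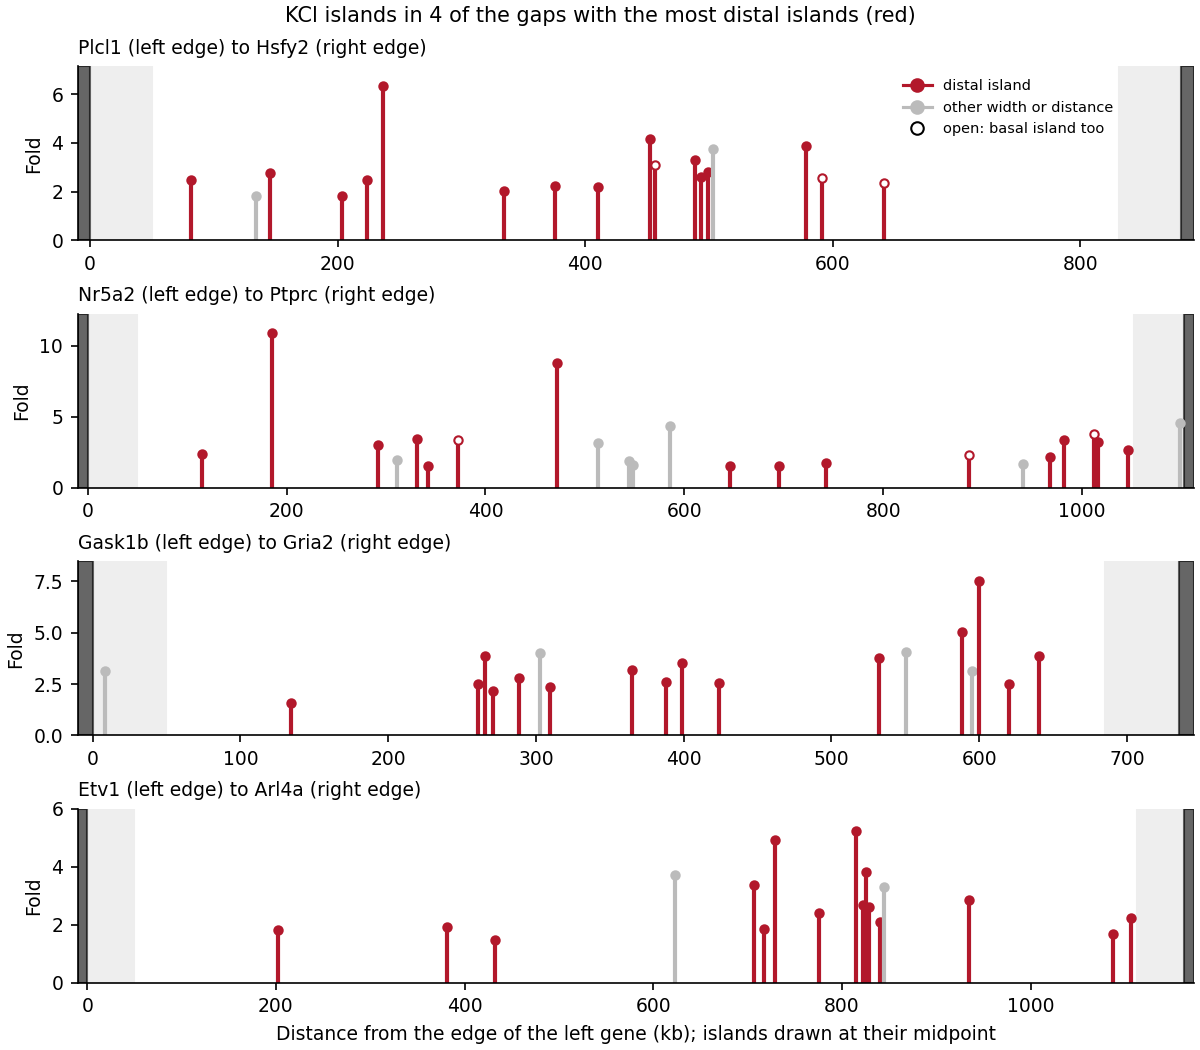
Distance from the left gene's edge in kb (horizontal axis) and fold of IP over control (vertical axis) of every KCl island in 4 of the gaps with the most distal islands; red stems are distal islands, grey stems islands of other widths or distances, open points have a basal island, and grey shading marks the first 50 kb beside each gene. Open points mark 3 of the 16 distal islands between Plcl1 and Hsfy2 and 3 of the 16 between Nr5a2 and Ptprc.

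Most distal islands stood alone. Joining islands separated by at most 12 kb gave 3422 groups, of which 3025 were single islands, 350 were pairs, 40 held 3 islands and 7 held 4 or more. The 852 grouped islands (22.0%) had a median fold of 2.66, against 2.67 for single ones. A basal island was found at 3.17% of grouped islands, against 3.27% of single ones.

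The largest group held 6 islands in 36.8 kb, 147 to 182 kb from Spry2 (chr14:105708201-105745000). Their folds were 1.79, 3.14, 5.31, 1.81, 1.78 and 1.59 along the chromosome, so the third, with 93 IP and 11 control reads, stood out in size, though its interval [2.83 to 11.0] overlaps that of the second [1.52 to 7.31]. The group near Arl4a held 5 islands in 26.0 kb (2.11 to 5.23-fold), and one near Celf2, which encodes an RNA-binding splicing regulator, held 5 in 43.6 kb (1.76 to 5.51-fold). The groups near Klf6 and 4931417E11Rik held 4 each.

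Strand was known for the nearest gene of 3004 distal islands. Of these, 1569 (52.2% [50.4 to 54.0]) lay on the side of the gene's start, where 51.7% of the available DNA lay. The median fold was 2.66 on either side, so distal islands showed no detectable preference for the start side.

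Genes that neuronal activity induces were among the nearest genes, as far as they had room: 19 of 32 rapid genes and 6 of 24 delayed genes found in the annotation had none. In a list of rapid activity-regulated genes, 6 of the 13 with room (46.2% [19.2 to 74.9]) were nearest to a distal island. The 13 genes had 32 islands, or 12.8 per Mb of their room [8.78 to 18.1]. In a list of delayed activity-regulated genes, 12 of the 18 with room (66.7% [41.0 to 86.7]) were nearest to one, with 40 islands or 11.6 per Mb [8.32 to 15.9]. All genes with room gave 33.9% and 5.02 per Mb, or 5.91 per Mb on autosomes. The rapid list's share interval includes 33.9%, and that of the delayed list does not. The density intervals count each island separately, although several islands can share a gene. Without the gene with the most islands, the values were 9.69 per Mb for rapid genes (without Klf6) and 10.9 for delayed genes (without Mef2c). The rapid value rests largely on Klf6 and Dusp6, which held 15 and 8 of the 32 islands. A density without both was not computed. The median fold of the islands was 2.77 for rapid and 2.58 for delayed genes, beside 2.67 for the class.

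Among rapid genes, the ERK phosphatase gene Dusp6 had 8 distal islands in 0.195 Mb of room, with folds from 1.95 to 7.69. The nuclear receptor gene Nr4a3 had 4 (2.23 to 3.29-fold), the zinc finger gene Klf4 had 3 (2.27 to 5.02-fold), and Egr2 and the kinase gene Sik1 had 1 each. Fos, Jun, Atf3, Ccn1, Dusp5, Ier5 and Nr4a2 had room and no distal island. The room of Fos was only 0.0107 Mb, whereas Nr4a2 had 0.450 Mb.

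Among delayed genes, Mef2c, encoding an activity-dependent transcription factor, had 10 distal islands (1.55 to 3.52-fold). Plk2, a kinase gene of synaptic scaling, had 9 (1.78 to 5.10-fold), Inhba, which encodes an activin subunit, had 6 (2.47 to 4.68-fold), and the secretogranin gene Scg2 had 4 (2.27 to 4.66-fold). The neurotrophin gene Bdnf had 1, 53.2 kb away, with a fold of 1.88. Of the 40 islands at delayed genes, 1 overlapped a basal island, at Inhba, and of the 32 at rapid genes 0 did.

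Lists of neuronal identity factors and channels had higher shares of genes with a distal island than the 33.9% of all genes. The ventral list's interval includes 33.9%. Shares do not allow for room, which was 12.5 Mb for 39 cortical, 3.10 Mb for 15 ventral and 7.20 Mb for 38 channel genes. All 4744 genes with room had 771.8 Mb. Densities were below those of the activity-regulated lists. The channel interval overlaps both of theirs, and the ventral interval overlaps that of delayed genes. Cortical projection neuron factors had 27 of 39 genes with a distal island (69.2% [52.4 to 83.0]) and 6.49 per Mb [5.16 to 8.07], led by Mef2c, the POU factor gene Pou3f3 with 7, the corepressor gene Tle4 with 6 and the nuclear receptor gene Nr2f1 with 5. Ventral and interneuron factors had 8 of 15 (53.3% [26.6 to 78.7]) and 5.15 per Mb [2.95 to 8.37], led by the LIM factor gene Isl1 with 6. Potassium channel subunits had 21 of 38 (55.3% [38.3 to 71.4]) and 7.08 per Mb [5.27 to 9.31], led by the Kv4.2 gene Kcnd2 with 6.

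Cadherins and protocadherins had 20 of 26 genes with a distal island, led by Pcdh7 and Pcdh18 with 9 each, and synaptic and neuronal adhesion genes had 38 of 50, led by Adgrl2 with 11, Slitrk5 with 10 and the axon guidance receptor gene Robo1 with 7. These genes border wide gaps, with 16.2 and 25.1 Mb of room in all. Per Mb of it they had 5.05 [4.02 to 6.27] and 5.78 [4.88 to 6.80]. Both intervals hold the 5.02 of all genes and the 5.91 on autosomes. Islands of these lists had median folds of 3.19 and 2.93. Homeobox, POU, LIM and related families had 25 of 54 and 4.47 per Mb [3.36 to 5.84]. SOX, FOX and related families had 25 of 62 and 4.91 per Mb [3.80 to 6.23] with a median fold of 2.25.

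Lists of genes that cortical neurons use little gave mixed values. Olfactory and vomeronasal receptors, expressed in sensory epithelia, had a distal island at 2 of 105 genes with room, or 0.431 per Mb [0.052 to 1.56]. Of the liver and muscle genes only Apob had room, and it had 2. Glial genes had a distal island at 5 of 6 genes with room, 16 islands and 11.4 per Mb [6.54 to 18.6], but 9 of the islands were nearest to the leukocyte phosphatase gene Ptprc and without it the value was 7.37. The others were nearest to Sox9 (3), the water channel gene Aqp4 (2), the glutamate transporter gene Slc1a3 (1) and Pdgfra (1). Whether glial cells contributed to the reads was not tested.

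**Figure D5:**
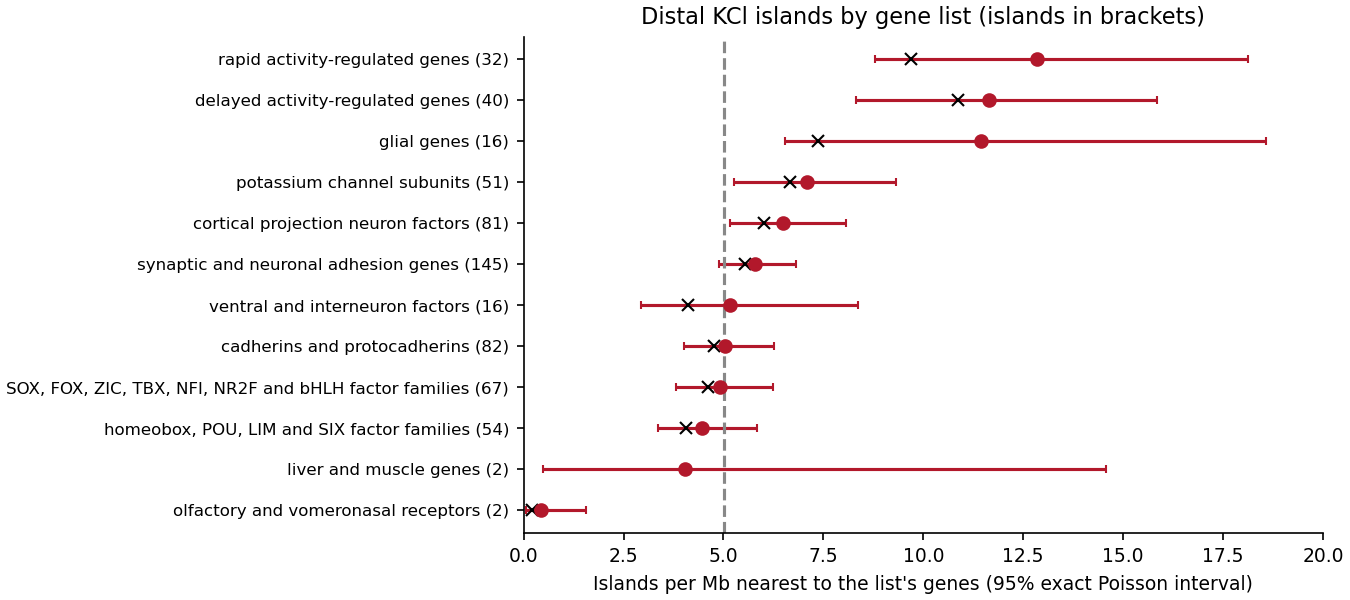
Distal islands per Mb of DNA nearest to the genes of each list (horizontal axis), with 95% exact Poisson intervals. Each row is a list with its number of islands, and crosses give the value without the gene with the most islands. The dashed line marks the 5.02 per Mb of all genes, which is 5.91 on autosomes. Rapid and delayed activity-regulated genes are at 12.8 and 11.6, and olfactory and vomeronasal receptors are at 0.431.

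Although far from coding genes, 667 distal islands (17.2% [16.0 to 18.4]) overlapped an annotated lncRNA gene, against 12.3% beyond 500 kb and 22.0% in the 2 to 50 kb class. By midpoint, 15.7% [14.6 to 16.9] of distal islands fell inside lncRNA genes, which occupy 11.4% of the DNA at these distances. The same pair of values was 11.0% in 5.85% of the DNA beyond 500 kb and 18.9% in 11.8% of the DNA at 2 to 50 kb. Altogether 535 lncRNA genes were overlapped.

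The lncRNAs named from here on were chosen after their values were seen. D5Ertd615e held 7 distal islands (1.86 to 5.65-fold). Gm30382, beside Adgrl2, held 6 (1.30 to 6.59-fold), and so did 5730522E02Rik near Fancl (1.67 to 2.49-fold) and Mir100hg, the host of a microRNA cluster (1.498 to 3.53-fold). Those with 5 each included 2610307P16Rik near Sox4, 4930500H12Rik near Robo1, Gm30687 near Clec14a and Sec23a, and A930011G23Rik near Rasgef1b.

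A small subset of distal islands sat on lncRNA promoters, taken as 250 bases before to 50 bases after an annotated start. These 106 islands (2.73% of the class) had a median fold of 2.04, against 2.69 for the 3771 elsewhere. They were wider (2100 against 1600 bp) and had more control reads per kb (10 against 8.75). Their fold interval lay above 1 in 73.6% of cases, against 91.5% elsewhere. The 171 distal islands of chromosome 18, whose promoters were not used, count as elsewhere.

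From the promoters' side, 121 windows of 106 lncRNA genes lay on a distal island. Of all 3138 lncRNA promoter windows at 50 to 500 kb, 148 (4.72% [4.001 to 5.52]) lay on a KCl island of any width, against 3.30% [2.75 to 3.92] of those at 2 to 50 kb and 22.3% of protein-coding promoters. Promoters of chromosome 18 were not used here.

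The promoters under distal islands were richer in CpG, the dinucleotide that marks promoters of broadly active genes. At least 10 CpG in the 300 bases were found for 23 of 106 genes (21.7% [14.3 to 30.8]), against 172 of 2490 genes (6.91% [5.94 to 7.98]) whose promoters at the same distances lay on no KCl island. The share over all lncRNA genes in the table was 20.8%, and over protein-coding genes it was 59.5%. GC content hardly differed, with medians of 46.0% and 45.7%.

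The sequences of 6 promoters under distal islands are shown, to set the CpG-poor windows of the most enriched islands beside the CpG-richest windows. All lie wholly inside a distal island; the first 4 have the islands with the largest lower limits of fold, and the last 2 have the most CpG of the rest. They are printed 5′ to 3′ on the lncRNA's strand from RefSeq (GRCm38.p6), with each CG in capitals.
Gm30490, chr1:96549947-96550246, minus strand: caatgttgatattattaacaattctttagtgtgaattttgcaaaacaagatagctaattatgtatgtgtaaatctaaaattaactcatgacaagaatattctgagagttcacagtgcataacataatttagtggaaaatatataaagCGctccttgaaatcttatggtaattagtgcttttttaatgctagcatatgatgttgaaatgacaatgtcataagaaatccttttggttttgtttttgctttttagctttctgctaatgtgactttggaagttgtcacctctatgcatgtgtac
4930480M12Rik, chr12:26211017-26211316, plus strand: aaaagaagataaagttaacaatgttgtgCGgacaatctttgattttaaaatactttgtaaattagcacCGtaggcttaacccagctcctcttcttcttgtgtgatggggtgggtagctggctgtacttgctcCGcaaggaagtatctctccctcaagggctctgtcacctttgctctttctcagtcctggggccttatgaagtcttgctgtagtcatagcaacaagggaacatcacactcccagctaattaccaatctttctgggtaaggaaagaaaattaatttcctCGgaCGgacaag
Gm32359, chr9:34019518-34019817, minus strand: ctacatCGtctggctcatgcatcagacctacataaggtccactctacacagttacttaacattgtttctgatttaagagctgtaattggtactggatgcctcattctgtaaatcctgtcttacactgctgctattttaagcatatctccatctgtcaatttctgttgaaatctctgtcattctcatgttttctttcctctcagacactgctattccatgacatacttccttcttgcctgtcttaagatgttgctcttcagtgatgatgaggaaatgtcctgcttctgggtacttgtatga
Gm31227, chr14:68437168-68437467, plus strand: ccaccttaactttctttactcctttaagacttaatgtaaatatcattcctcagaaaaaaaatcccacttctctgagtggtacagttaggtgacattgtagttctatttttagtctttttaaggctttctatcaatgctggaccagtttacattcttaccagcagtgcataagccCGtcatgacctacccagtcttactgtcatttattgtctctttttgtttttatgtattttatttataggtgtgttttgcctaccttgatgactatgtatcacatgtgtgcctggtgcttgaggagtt
Gm34507, chr17:4908072-4908371, plus strand: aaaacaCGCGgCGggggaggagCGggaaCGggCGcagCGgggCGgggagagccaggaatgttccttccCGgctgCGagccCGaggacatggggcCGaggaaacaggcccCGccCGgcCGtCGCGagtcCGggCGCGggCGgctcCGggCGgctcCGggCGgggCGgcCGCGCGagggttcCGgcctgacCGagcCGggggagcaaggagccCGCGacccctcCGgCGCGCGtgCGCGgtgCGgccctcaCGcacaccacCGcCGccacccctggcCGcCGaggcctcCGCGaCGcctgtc
E130102H24Rik, chr4:101356199-101356498, minus strand: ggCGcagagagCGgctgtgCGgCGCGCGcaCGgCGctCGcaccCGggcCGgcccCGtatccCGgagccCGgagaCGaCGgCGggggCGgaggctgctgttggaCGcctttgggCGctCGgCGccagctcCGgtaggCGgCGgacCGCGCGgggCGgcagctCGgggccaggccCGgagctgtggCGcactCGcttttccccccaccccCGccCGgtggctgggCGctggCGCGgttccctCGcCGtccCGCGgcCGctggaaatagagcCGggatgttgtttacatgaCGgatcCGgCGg

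The 4 promoters in the most enriched islands held few CpG, 1 in Gm30490, 5 in 4930480M12Rik, 1 in Gm32359 and 1 in Gm31227. Their islands were 4.54-fold [2.53 to 8.84], 7.75-fold [2.45 to 39.3], 5.29-fold [2.42 to 13.7] and 3.80-fold [2.30 to 6.66] enriched. The CpG-rich windows of Gm34507, 84.3 kb from the BAF subunit gene Arid1b, and of E130102H24Rik held 49 and 47 CpG. Their islands, each 3600 bp wide, were 1.77-fold [1.25 to 2.56] and 1.40-fold [0.972 to 2.03] enriched, so the second was not separable from 1.

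Motifs of activity-regulated factors were searched in the same windows on both strands, as plain letters in which N is any base; no motif holds another. The AP-1 site TGANTCA was found in 11.6% of the windows on a distal island, against 11.3% of those on no island. The NeuroD-type E-box CAGATG was found in 22.3%, against 22.7%, the cAMP response element TGACGTCA in 0.826%, against 0.502%, and the EGR core GTGGGCG in 0.826%, against 1.84%. Over all promoters of the table these motifs were present in 7.81, 17.2, 1.79 and 7.96% of windows.

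The MEF2 core TATTTATA was present in 10 of 121 windows on a distal island (8.26% [4.03 to 14.7]), against 69 of 2990 on none (2.31% [1.80 to 2.91]) and 1.70% of all promoters. Of these 10 windows, 4 belong to the gene 4930445E18Rik, whose alternative starts share the same site. Counted once per gene, the values were 7 of 106 (6.60% [2.70 to 13.1]) and 67 of 2490 (2.69% [2.09 to 3.40]), with overlapping intervals. A match of letters is not a bound site, and island sequences outside these windows were not analysed here.

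MicroRNA genes far from coding genes were sometimes close to a distal island. Of 153 at 50 to 500 kb, 20 (13.1% [8.17 to 19.5]) had a distal island within 10 kb, and 9.95% of the DNA at these distances was as close to one. The interval includes 9.95%, so the share was not separable from that of the DNA. Some of the 20 are neighbours that share an island. Only Mir344 was itself overlapped, by an island of 2.09-fold [1.16 to 4.01]. The microRNAs with known neural or broad roles among the 20 are described with their mature sequences from RefSeq, where the table holds them, written 5′ to 3′ with the seed, bases 2 to 8, in capitals.
mmu-miR-181a-5p: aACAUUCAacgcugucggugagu
mmu-miR-181b-5p: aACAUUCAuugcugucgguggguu
mmu-miR-137-3p: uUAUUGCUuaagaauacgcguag
mmu-let-7c-5p: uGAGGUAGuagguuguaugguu
mmu-miR-99a-5p: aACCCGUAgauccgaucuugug
mmu-miR-101a-3p: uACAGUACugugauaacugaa
mmu-miR-344-3p: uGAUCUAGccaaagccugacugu

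The first 2 share the seed ACAUUCA and come from neighbouring genes of the gap between Nr5a2 and Ptprc. A distal island 5.28 kb from Mir181b-1 (chr1:137972001-137973800) held 145 IP and 24 control reads, a fold of 3.79 [2.45 to 6.11], and overlapped a basal island. A second, 8.88 kb from it, held 61 and 12 (3.19-fold [1.70 to 6.51]). Both have Ptprc, 89.1 and 84.5 kb away, as nearest coding gene, so they count among the glial list's islands above.

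Mir137, a regulator of neuronal maturation, had a distal island 7.87 kb away with 71 IP and 18 control reads (2.48-fold [1.46 to 4.42]). The neighbours Mirlet7c-1 and Mir99a shared one at 2.65 and 3.40 kb (3.60-fold [1.88 to 7.57]). Mir124a-2, a gene of the abundant neuronal microRNA miR-124, had 2 such islands, at 1.63 kb (1.65-fold [1.14 to 2.44]) and 8.63 kb (3.77-fold [1.98 to 7.91]). The island near Mir101a was the one on the E130102H24Rik promoter printed above. On X, an island inside Ftx, a lncRNA gene of the X-inactivation centre, lay 7.12 kb from Mir421 and was 3.14-fold enriched [1.97 to 5.21].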

How the data were processed

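BRG1/BRM ChIP-seq of mouse cortical neurons was analysed from the island lists of the KCl and the basal IP library, 1 library each, with groups taken from sample titles. Alignment with BWA to mm10 (GRCm38) and island calling with SICER 1.0 are per the submitters' processing notes. As deposited, the lists carry in their names 200 bp windows, gaps of 600 bp and a 0.01 FDR threshold. For each island the authors deposited a count of IP reads and a count of control reads, not normalized, a p-value with its FDR, and a fold, the ratio of those counts scaled by a constant per library. Which input served as control, and whether duplicate reads were removed, is not given in the sources used here. Depth sets the width of each interval, and total depth is unknown.

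Positions were made 1-based. Distances used protein-coding genes of RefSeq GRCm38.p6. Territory is the DNA between the outermost coding genes of each chromosome at the stated distance. Fold intervals are Clopper-Pearson intervals of IP among IP and control reads, divided by the library constant. With 1 library per condition no test was run. The calculations were tested on simulated data and used Python 3.11.15, pandas 2.3.3, numpy 2.4.6 and scipy 1.17.1.

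Named islands were the 6 with the largest lower limit of fold, the 4 with the most IP reads, the 6 with a basal island and the largest lower limit, and those at each bound, leaving out the 1% of KCl islands with the most control reads per kb. Named genes were the 10 nearest to the most islands, the 5 largest stitched groups and gaps, and up to 4 per list. A gap that this rule selects is not reported here. Genes named in the lists beyond 4, lncRNAs, promoters and microRNAs were chosen after their values were seen. The class, the lists and these rules were set with earlier results of these data known.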

Additional observations from a re-analysis of the deposited data

How the results depend on the processing

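Of 55 alternatives, 39 gave the same reading and 16 moved the value by more than its interval or bound. For most settings the class between 2 and 50 kb was not recomputed. Whether its order relative to the distal class held under those settings was not tested. The median fold of the distal islands, 2.67, was 2.92 with islands of an FDR of at most 1e-05, 3.00 with those of at least 2-fold, 2.72 over 100 kb, 2.72 with no upper bound of distance, 2.92 when all annotated genes set the distance and 2.83 without width bounds. The share with a fold interval above 1, 91.0%, was 100% with an FDR of at most 1e-05, 99.97% with at least 2-fold, 92.0% over 100 kb and 93.6% with all annotated genes. Both filters select on the reads themselves. With all annotated genes the class fell to 2018 islands. The share with a basal island, 3.25%, was 1.42% with basal islands of an FDR of at most 1e-05, where it was 0.816% of the whole KCl list. The density, 5.02 per Mb, was 4.22 with an FDR of at most 1e-05, 4.34 with all annotated genes and 5.91 on autosomes. The autosomal and the basal FDR settings, the density without a list's leading gene and the motif share per gene were added after seeing the data. Under an FDR of at most 1e-05 the class between 2 and 50 kb had a median fold of 2.80 and 3.05 islands per Mb, again below the distal class. Counting either flanking gene gave olfactory and vomeronasal receptors 7 genes with a distal island, against 2 by nearest gene. No paired analysis was possible because each group holds 1 library, and for the same reason no replicate could be left out. The sequence composition of whole islands was not run, since no genome sequence was used here.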
